A study of Mus musculus with 28 samples.

Results

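Notch receptors, ligands and targets are described here through 9 genes, taken by name from the 47729 gene IDs of the count files. They are the receptors Notch1, Notch2 and Notch3, the ligands Jag1, Jag2 and Dll1, and the targets Hes1, Hey1 and Nrarp. All 9 were found and all 9 had enough reads to be tested, as did 17299 genes in all. The series follows epidermal stem cells of C57BL/6 mice labelled female, sorted as Integrin A6+, B1+, Sca1+ and CD34-, with bulk RNA-seq in 8 groups of 2 libraries. The 12 ATAC-seq samples were not analysed here. Treatment started at postnatal day 60 and lasted 6 days. The day 6 imiquimod group had received topical imiquimod, an agonist of Toll-like receptor 7 that inflames skin, and the day 6 control group had received vanicream, the carrier cream. The day 30 imiquimod and day 30 control groups were taken 30 days after the same treatments, from skin that was not wounded. The 6 h and 12 h wound groups came from skin given full thickness wounds at 30 days, called post-imiquimod wounds and control wounds below. The labels do not say that the 2 libraries of a group came from separate animals, so p-values measure the spread between these libraries, which may be technical outside the day 30 groups, whose libraries differ in sex-linked reads as given below.

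Notch receptors span the cell membrane and are activated by Jagged and Delta-like ligands on a neighbouring cell. Ligand binding lets ADAM proteases and then gamma-secretase cut the receptor, and the released intracellular domain joins the DNA-binding protein Rbpj and Mastermind-like coactivators to switch on genes of the Hes and Hey families. In mouse epidermis the pathway is known for promoting the exit of basal cells into the suprabasal layers, for Hes1 as a repressor that keeps committed cells from differentiating too early, and for skin inflammation when it is lost.

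Promoter windows are shown for the 3 of the 9 genes whose log2 fold changes at day 6 were largest in size, Dll1 and Jag2 being lower and Nrarp higher after imiquimod. Each covers 250 bases before to 50 bases after an annotated start (RefSeq, GRCm38.p6) and is written 5′ to 3′ on the strand of the gene, with capitals for CACGTG or CACGCG, 2 motifs that Hes and Hey proteins can bind.
Dll1, chr17:15376883-15377182, minus strand: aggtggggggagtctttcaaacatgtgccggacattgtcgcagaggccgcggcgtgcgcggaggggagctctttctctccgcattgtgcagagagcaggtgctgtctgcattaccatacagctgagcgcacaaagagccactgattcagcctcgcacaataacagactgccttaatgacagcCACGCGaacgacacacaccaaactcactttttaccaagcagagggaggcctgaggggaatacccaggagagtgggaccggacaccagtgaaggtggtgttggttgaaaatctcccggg
Jag2, chr12:112929446-112929745, minus strand: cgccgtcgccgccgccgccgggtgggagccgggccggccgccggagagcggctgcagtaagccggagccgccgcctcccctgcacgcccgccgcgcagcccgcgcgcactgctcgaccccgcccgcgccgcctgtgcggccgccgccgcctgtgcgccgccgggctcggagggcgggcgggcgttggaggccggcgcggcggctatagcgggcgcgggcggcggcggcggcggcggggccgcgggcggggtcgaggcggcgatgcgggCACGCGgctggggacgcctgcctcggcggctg
Nrarp, chr2:25180508-25180807, plus strand: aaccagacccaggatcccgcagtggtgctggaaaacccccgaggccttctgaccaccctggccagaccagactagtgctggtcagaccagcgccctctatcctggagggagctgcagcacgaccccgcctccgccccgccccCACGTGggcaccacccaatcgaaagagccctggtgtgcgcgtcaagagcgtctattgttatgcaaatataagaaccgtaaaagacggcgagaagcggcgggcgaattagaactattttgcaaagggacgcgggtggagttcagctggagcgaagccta
In the Dll1 window CACGCG lies at position -68 from the start, and in the Jag2 window at position 18. The whole Jag2 window lies inside the RefSeq gene (chr12:112907803-112929812). It therefore holds no bases before the outer 5′ end of Jag2, and its CACGCG lies within the gene. In the Nrarp window CACGTG, which reads the same on both strands, lies at position -108. The other Dll1 window and those of Notch1 and Notch3 hold neither, and those of Notch2 and Jag1 hold CACGCG, so that 4 of 8 windows hold CACGCG and 1 holds CACGTG. RefSeq windows were at hand for 7 of the 9 genes, 8 windows in all because Dll1 has another start. Hes1 and Hey1 had none, so Nrarp is the only target covered. GTGGGAA, the Rbpj motif, and its core TGGGAA, which lies inside it, were in none of these 8 windows on either strand. Among all 32851 mouse windows of this length, 6.38% held GTGGGAA, 25.6% held TGGGAA, 7.15% held CACGTG and 9.27% held CACGCG on either strand, with no matching for base composition. A match is a run of letters and not a binding site, and a missing match says only that these letters are not in the window.

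Libraries held 23623968 to 76993427 counted reads. Levels are given as CPM, the share of a library's counted reads that fall on a gene, scaled to the same library size for all, and are not corrected for gene length, so they are compared between samples and not between genes. Fold changes come from the edgeR fit with TMM scaling. That scaling moved all log2 fold changes, relative to scaling by library totals, by 0.21 at day 6, by -0.14 and -0.19 in 6 h and 12 h control wounds, by 0.33 for day 30 over day 6 control, by 0.29 for the day 6 minus day 30 difference, and by 0.11 and 0.14 for the 6 h and 12 h differences in wound response. Elsewhere the shift was under 0.1. Both day 30 libraries numbered 1 went against the label female, with 1 Xist read at most and with 6023 (imiquimod) and 7830 (control) reads of 4 Y-linked genes, while the other 14 libraries held at most 2 such reads. The 2 libraries of each day 30 group therefore held cells of different animals. Comparisons that use unwounded day 30 libraries were also fitted without the 2 libraries numbered 1, which keeps 1 library in each day 30 group. The sorted markers Itga6, Itgb1 and Ly6a (the gene of Sca1) and the basal keratinocyte genes Krt5, Krt14 and Trp63 summed to 33169 to 60022 CPM per library, and Cd34, which the sort excluded, stood at 0.193 to 10.4 CPM. In bulk RNA, fewer cells of a type and less RNA per cell cannot be told apart.

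**Figure D1:**
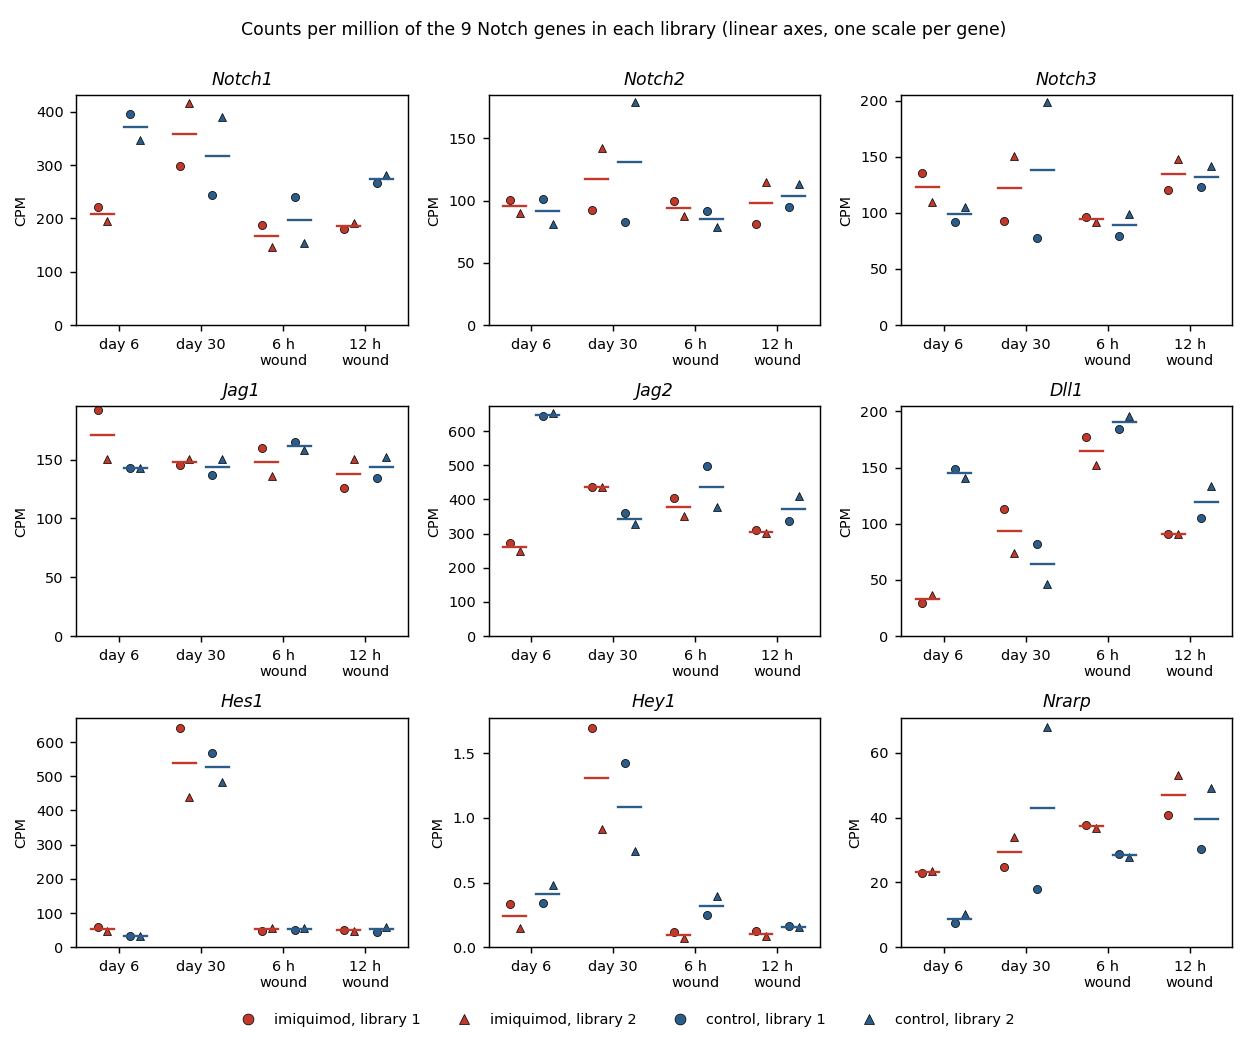
Level of each of the 9 genes in every library, in CPM on linear axes that start at 0, by time (x axis), with imiquimod in red left of control in blue, circles for libraries numbered 1, triangles for libraries numbered 2 and a bar at the mean. Hes1 sits between 438 and 641 CPM in the 4 day 30 libraries and between 32.0 and 60.5 CPM in the other 12, and Dll1 is lowest in the 2 day 6 imiquimod libraries, at 29.6 and 36.2 CPM.

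The first comparison asks what 6 days of imiquimod did to these genes in the stem cells. Among the ligands, Dll1 and Jag2 fell and Jag1 rose, among the receptors Notch1 fell, and the targets Hes1 and Nrarp rose. That is 3 genes higher and 3 lower of 9, with a median log2 fold change of 0.27 against 0.10 over all genes tested. Of all genes tested in this comparison 36.6% were called at an adjusted p under 0.05, 21.6% higher and 15.0% lower, so a change at day 6 was common in these libraries.

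Dll1, a Delta-like ligand, stood at 29.6 and 36.2 CPM in the day 6 imiquimod libraries and at 149 and 141 CPM in the day 6 control libraries. The groups lay far apart, and the 2 imiquimod libraries were the lowest of all 16. Its log2 fold change was -1.92 ± 0.29 (SE, edgeR adjusted p = 0.000342), and the call held without any single library. Jag2, a Jagged ligand, stood at 273 and 251 CPM in imiquimod libraries and at 645 and 652 CPM in control libraries, again without overlap. Its log2 fold change was -1.09 ± 0.16 (edgeR adjusted p = 0.000203), which also held without any single library. Jag1, the other Jagged ligand, went the other way, with 192 and 151 CPM under imiquimod and 143 and 143 CPM in control. The second imiquimod library was close to both control libraries. The log2 fold change of Jag1 was 0.47 ± 0.13 (edgeR adjusted p = 0.0133). That call was lost without either control library (adjusted p = 0.0575 and 0.0667), without imiquimod library 1 (0.0742), with only the day 6 libraries in the fit (0.35, adjusted p = 0.182) and with scaling by library totals (0.26, adjusted p = 0.176).

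Notch1, a receptor known as a tumour suppressor in mouse skin, stood at 222 and 196 CPM in day 6 imiquimod libraries and at 396 and 347 CPM in day 6 control libraries. The ranges did not overlap, and the log2 fold change was -0.62 ± 0.22 (edgeR adjusted p = 0.0414). Leaving out any 1 of the 4 libraries ended this call, at adjusted p from 0.0735 to 0.181. Notch2, its close relative, stood at 101 and 89.9 CPM under imiquimod and at 102 and 81.1 CPM in control, so the groups overlapped (log2 fold change 0.27 ± 0.29, edgeR adjusted p = 0.499). Notch3, the remaining receptor, stood at 136 and 110.1 CPM under imiquimod and at 92.0 and 105 CPM in control, with no overlap. Its log2 fold change of 0.53 ± 0.33 did not pass (edgeR adjusted p = 0.239). It did with the replicate number as a block (0.53, adjusted p = 0.0245) and with no filter on low counts (0.55, adjusted p = 0.0165).

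Hes1, a transcriptional repressor and the best known Notch target, stood at 59.0 and 47.7 CPM in day 6 imiquimod libraries and at 32.0 and 32.3 CPM in day 6 control libraries. Both imiquimod libraries were higher, with a log2 fold change of 0.94 ± 0.22 (edgeR adjusted p = 0.00484), and no single library decided the call. Nrarp, which Notch switches on and which in turn restrains the pathway, stood at 22.9 and 23.5 CPM under imiquimod and at 7.41 and 10.2 CPM in control. Its log2 fold change was 1.62 ± 0.47 (edgeR adjusted p = 0.0196). The call was lost without control library 1 (adjusted p = 0.122), without control library 2 (0.0561) and without imiquimod library 2 (0.0918). Hey1, a repressor related to Hes1, had only 16 and 5 reads under imiquimod and 17 and 14 reads in control, and a difference was not detectable at this depth (log2 fold change -0.53 ± 0.60, edgeR adjusted p = 0.526).

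Marker genes of other cell types moved with these changes. Macrophage markers rose for 6 of 8 genes and summed to 71.3 and 76.4 CPM in imiquimod libraries against 19.5 and 10.9 CPM in control libraries, with no marker at 0. Of 10 hair follicle markers Sox9 rose and Krt15 and Msx2 fell, and the list summed to 519.9 and 568 CPM under imiquimod against 7499 and 11663 CPM in control. In the imiquimod libraries Shh was at 0 in one and Krt25 in the other. Nearly all of that sum was Krt15, a keratin of the hair follicle bulge and of basal cells, at 397 and 504 CPM against 7454 and 11633 CPM. Of 12 suprabasal markers 6 rose and 1 fell, with sums of 11808 and 21921 CPM under imiquimod and 8178 and 11939 CPM in control, so these sums overlapped. Pericyte and muscle markers summed to 32.7 and 39.8 CPM under imiquimod against 102 and 84.2 CPM in control, and 2 of 8 fell. Fibroblast markers summed to 1164 and 1322 CPM against 626 and 800.5 CPM, with 1 higher and 1 lower of 10. T cell markers summed to 8.30 and 6.75 CPM against 3.61 and 2.75 CPM, and 2 of 4 tested rose. Melanocyte markers summed to 8.70 and 8.32 CPM against 20.3 and 14.5 CPM, with none of 6 tested called. Sums of endothelial markers (2 of 8 tested rose) and of Langerhans and dendritic cell markers (1 of 5 tested rose) overlapped between the groups. The part of any of these cells in the Notch results was not tested. Imiquimod library 1 also had the highest mitochondrial share of the 16 libraries, 7.65% of its reads.

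**Figure D2:**
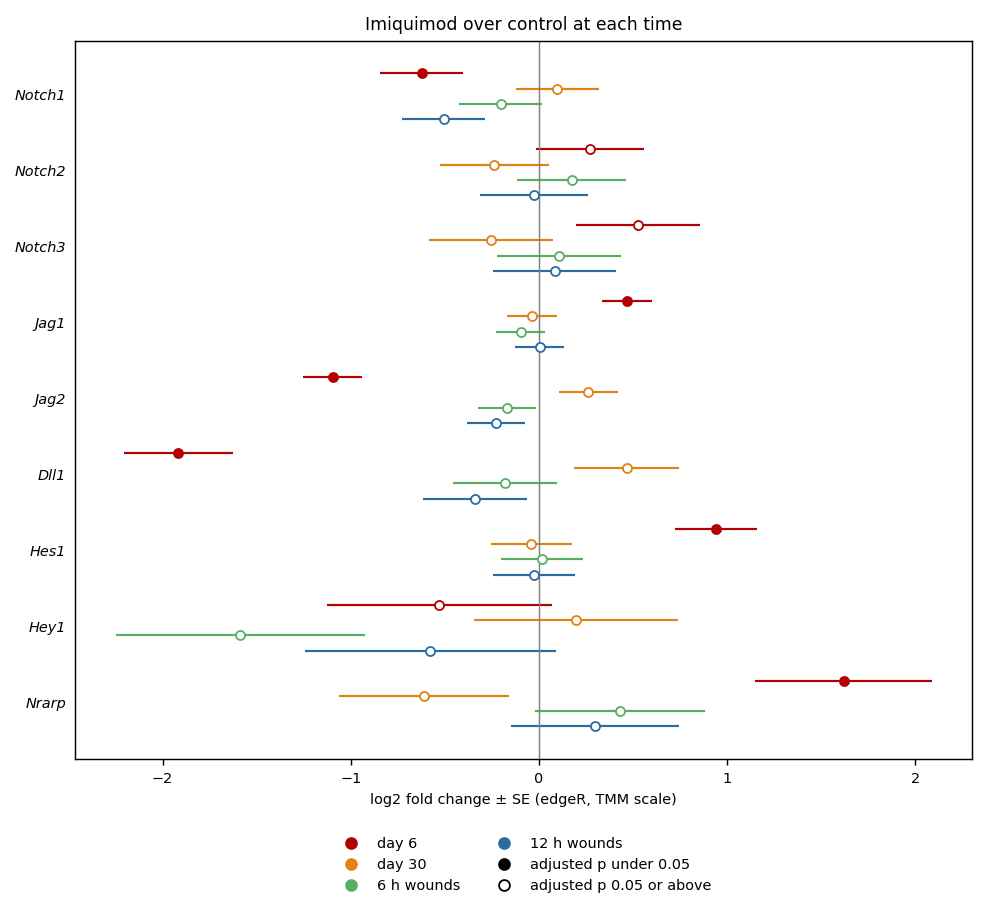
Log2 fold change of imiquimod over control with its standard error (x axis, edgeR) for the 9 genes at day 6, day 30, 6 h wounds and 12 h wounds, with filled points for an adjusted p under 0.05. The 6 filled points are all at day 6, from -1.92 for Dll1 to 1.62 for Nrarp, and the points of the other times are open.

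At day 30 the question is whether a difference from control remained in skin that had recovered from imiquimod. None of the 9 genes was called, and in this comparison 0.0116% of all genes tested were. No member had an unadjusted p under 0.05, and DESeq2 called none. Dll1 stood at 113 and 74.3 CPM in day 30 imiquimod libraries and at 82.3 and 46.0 CPM in day 30 control libraries. The groups overlapped, while within each pair of the same number the imiquimod library was higher. The log2 fold change was 0.47 ± 0.28 (edgeR adjusted p = 1), and 0.50 with the replicate block (adjusted p = 0.483). Jag2 stood at 437 and 436 CPM in imiquimod libraries and at 359 and 329 CPM in control libraries. Both imiquimod libraries were higher, but the log2 fold change of 0.26 ± 0.16 did not pass (edgeR adjusted p = 1). The targets did not pass either, with log2 fold changes of -0.04 ± 0.22 for Hes1, 0.20 ± 0.54 for Hey1 and -0.61 ± 0.45 for Nrarp. For the receptors they were 0.10 ± 0.22 for Notch1, -0.24 ± 0.29 for Notch2 and -0.25 ± 0.33 for Notch3, and for Jag1 -0.04 ± 0.13.

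Whether the imiquimod effect differed between the times was tested directly, as the log2 fold change at day 6 minus that at day 30. Here 4 of the 9 genes passed, 2 in each direction, beside 22.5% of all genes tested (13.7% with a higher and 8.82% with a lower value at day 6). Dll1 differed by -2.38 ± 0.40 (edgeR adjusted p = 0.00183) and Jag2 by -1.36 ± 0.22 (edgeR adjusted p = 0.00140). Both held without any single library. Hes1 differed by 0.98 ± 0.31 (edgeR adjusted p = 0.0361) and Nrarp by 2.23 ± 0.65 (edgeR adjusted p = 0.0318). The Hes1 value lost its call without any 1 of the day 6 libraries (adjusted p from 0.0816 to 0.0924) and without day 30 control library 1 (0.129), day 30 control library 2 (0.0565) or day 30 imiquimod library 2 (0.54, adjusted p = 0.239). Nrarp rested on day 30 control library 2, without which the difference was 0.89 (adjusted p = 0.109). It also lost its call without day 6 control library 1 or 2 (adjusted p = 0.103 and 0.0603), day 6 imiquimod library 2 (0.0954) and day 30 imiquimod library 1 or 2 (0.109 and 0.0770). With only the 8 libraries compared in the fit, neither Hes1 (0.87, adjusted p = 0.146) nor Nrarp (2.11, adjusted p = 0.131) passed. With scaling by library totals Hes1 (0.70, adjusted p = 0.0930) and Nrarp (1.95, adjusted p = 0.0608) did not pass. Without both day 30 libraries numbered 1 the differences were -2.52 for Dll1, -1.41 for Jag2, 1.17 for Hes1, 2.70 for Nrarp and 1.01 for Notch3. Notch1, Notch3 and Jag1 missed the threshold (-0.72, 0.78 and 0.50) and passed with the replicate block (-0.73, 0.68 and 0.50, adjusted p = 0.00578, 0.0479 and 0.0168). Notch3 passed with no filter on low counts too (0.81, adjusted p = 0.0185), and DESeq2 called Jag1 (0.48, adjusted p = 0.0425). Notch1 was -1.19 without day 30 control library 2 and -1.04 without day 30 imiquimod library 1, and Notch3 was 1.24 without day 30 control library 1. Under other alternatives the weakest values were -0.49 for Notch1, 0.22 for Jag1 and -0.13 for Notch3, the last with its sign changed.

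Hes1 set unwounded day 30 skin apart from every other group. It stood at 641 and 438 CPM in day 30 imiquimod libraries and at 569.6 and 484 CPM in day 30 control libraries. In the other 12 libraries, from day 6 skin and from wounds, it stood between 32.0 and 60.5 CPM. Every day 30 library was above every other library, with no overlap between unwounded day 30 skin and the other groups. Day 30 control over day 6 control, a comparison added after these levels were seen, gave a log2 fold change of 4.37 ± 0.25 for Hes1 (edgeR adjusted p = 1.6e-07), and 4.23 without both day 30 libraries numbered 1. Of all genes tested 21.3% were called in this comparison, 11.8% higher and 9.45% lower at day 30. Age and time after treatment differ between these groups, day 30 control library 1 is one of those with Y-linked reads, and these cannot be told apart from the day itself in the full comparison.

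In the same comparison Nrarp rose by a log2 fold change of 2.60 ± 0.48 (edgeR adjusted p = 0.00486), to 18.0 and 67.8 CPM in day 30 control libraries, against 7.41 and 10.2 CPM in day 6 control libraries. The 2 day 30 libraries differed widely, and without the second the value was 1.35 (adjusted p = 0.00989). Hey1 stood at 1.42 and 0.745 CPM in day 30 control libraries (34 and 27 reads) and at 0.343 and 0.482 CPM in day 6 control libraries (17 and 14 reads). Its log2 fold change of 1.73 ± 0.57 just passed (edgeR adjusted p = 0.0472) and did not without either day 6 control library or without day 30 control library 1 (adjusted p from 0.110 to 0.265). Jag2 fell by 0.58 on the log2 scale (SE 0.16, edgeR adjusted p = 0.0203), a call lost without either day 6 control library or without day 30 control library 2 (adjusted p from 0.0707 to 0.0781). With only these 4 libraries in the fit, Nrarp, Hey1 and Jag2 did not pass (adjusted p = 0.136, 0.141 and 0.121). Dll1 (-0.83), Notch2 (0.84), Notch3 (0.80) and Jag1 (0.34) missed the threshold, at adjusted p from 0.0519 to 0.102, and passed with the replicate block (-0.91, 0.76, 0.68 and 0.34, adjusted p from 0.00208 to 0.0210). Without both day 30 libraries numbered 1, the values were -1.34 for Dll1, 1.29 for Notch2, 1.33 for Notch3 and 1.18 for Hey1. Under other alternatives the weakest values were -0.50 for Dll1, 0.18 for Notch2, 0.01 for Jag1 and -0.03 for Notch3, the last with its sign changed. With scaling by library totals Dll1 passed (-1.18, adjusted p = 0.00623) and Hey1 did not (1.39, adjusted p = 0.0888).

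Markers of other cell types also differed between day 30 skin and the other groups. Suprabasal markers summed to 18644 and 20949 CPM in day 30 imiquimod libraries and to 19321 and 34066 CPM in day 30 control libraries, against 10749 to 14815 CPM in wounds and 8178 and 11939 CPM in day 6 control libraries. Of the day 6 imiquimod sums given above, 21921 CPM lies within the day 30 range and 11808 CPM below it. For day 30 over day 6 control, 6 of the 12 suprabasal markers rose, among them Krt1 and Krt10, the keratins of the first suprabasal layer, and none fell. Macrophage markers summed to 1.41 to 1.97 CPM in the 4 day 30 libraries, with C1qb and C1qc at 0 in all 4, and to 5.18 to 14.5 CPM in wounds. For day 30 over day 6 control all 8 macrophage markers fell, as did 6 of 10 fibroblast markers (sums of 252.5 and 258 CPM at day 30 against 626 and 800.5 CPM at day 6) and 3 of 6 tested melanocyte markers. Of the hair follicle markers 1 rose and 2 fell of 10, and 1 fell in each of the endothelial, pericyte and muscle, and Langerhans and dendritic lists. The part of these cells in the Hes1 levels was not tested.

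**Figure D3:**
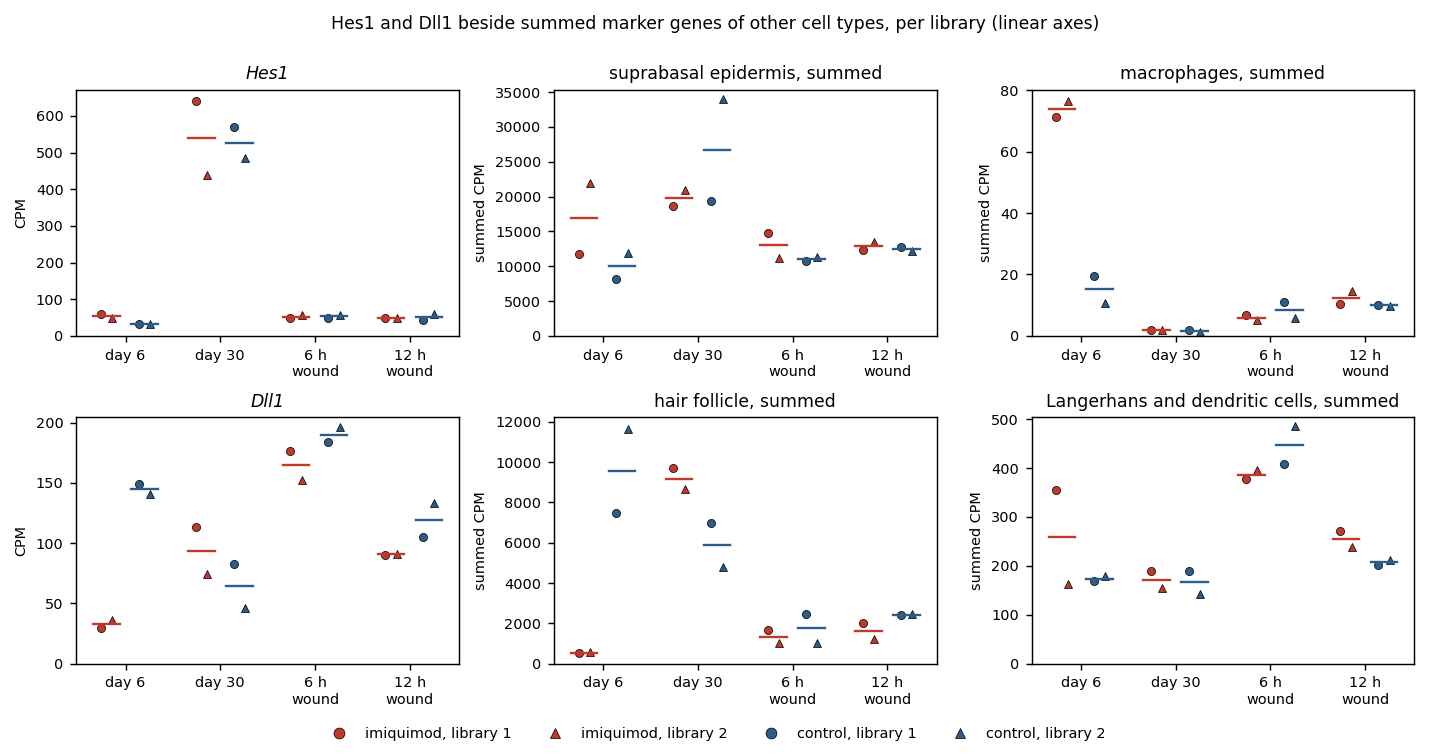
Level of Hes1 and Dll1 (CPM) beside the summed CPM of marker genes for suprabasal epidermis, macrophages, hair follicle, and Langerhans and dendritic cells in every library, on linear axes that start at 0, with imiquimod in red left of control in blue. Hes1 stands at 438 to 641 CPM in the 4 day 30 libraries, where suprabasal sums run from 18644 to 34066 CPM and macrophage sums from 1.41 to 1.97 CPM.

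The wound comparisons ask how the stem cells of post-imiquimod and control skin responded 6 h and 12 h after injury, each against unwounded day 30 skin of the same treatment. Within a treatment both times share the same 2 unwounded libraries, so the values are set side by side. Hes1 and Hey1 fell in all 4 comparisons. Notch1 fell in 3 and Dll1 rose at 6 h in both skins, and in no wound group did Jag1, Notch2, Notch3 or Nrarp pass. Wounds were not compared with day 6 skin, which was also unwounded. Day 6 control libraries held Hes1 at 32.0 and 32.3 CPM, below every wound library, and Notch1 at 396 and 347 CPM, above every wound library. They held Hey1 at 0.343 and 0.482 CPM, within or above the range of the wounds, and Dll1 at 149 and 141 CPM, below all libraries of 6 h wounds.

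Hes1 stood at 48.3 and 57.0 CPM in 6 h post-imiquimod wounds and at 49.7 and 48.9 CPM in 12 h post-imiquimod wounds, against 641 and 438 CPM in day 30 imiquimod libraries. It stood at 49.9 and 56.5 CPM in 6 h control wounds and at 44.1 and 60.5 CPM in 12 h control wounds, against 569.6 and 484 CPM in day 30 control libraries. No wounded library came near an unwounded one. The log2 fold changes were -3.39 ± 0.24 at 6 h and -3.51 ± 0.24 at 12 h in post-imiquimod skin (edgeR adjusted p = 5.8e-06 and 4.4e-06). In control skin they were -3.45 ± 0.24 at 6 h and -3.53 ± 0.24 at 12 h (edgeR adjusted p = 6.8e-06 and 3.33e-06). Without both day 30 libraries numbered 1 they ran from -3.05 to -3.38.

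Hey1 had 9 and 2 reads at 6 h and 5 and 6 reads at 12 h in post-imiquimod wounds, against 40 and 27 in day 30 imiquimod libraries. With each group's reads summed and divided by its summed totals, the ratio was 0.0839 at 6 h (95% exact binomial interval 0.0400 to 0.160) and 0.0782 at 12 h (0.0373 to 0.149), where the interval covers counting error only. In control skin Hey1 had 14 and 11 reads at 6 h and 6 and 11 reads at 12 h, against 34 and 27 at day 30, which are ratios of 0.291 (0.175 to 0.471) and 0.156 (0.0855 to 0.271). The edgeR log2 fold changes were -3.69 ± 0.65 and -3.71 ± 0.64 in post-imiquimod skin (adjusted p = 0.000713 and 0.000674) and -1.91 ± 0.58 and -2.93 ± 0.61 in control skin (adjusted p = 0.0225 and 0.00314). The 6 h control value did not pass without day 30 control library 1 (-1.34, adjusted p = 0.144), without 6 h control wound library 1 (adjusted p = 0.148) or library 2 (0.0513), or with only the libraries compared in the fit (0.0922). The post-imiquimod values without both day 30 libraries numbered 1 were -3.16 and -3.17 (adjusted p = 0.00443 and 0.00420). Those in control skin were then -1.35 at 6 h, which did not pass (adjusted p = 0.135), and -2.38 at 12 h (adjusted p = 0.0202).

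Nrarp, the third target, did not pass at either time. It stood at 37.6 and 36.9 CPM in 6 h post-imiquimod wounds and at 40.9 and 53.0 CPM in 12 h post-imiquimod wounds, against 24.7 and 34.0 CPM in day 30 imiquimod libraries. All 4 wounded libraries were above both unwounded ones there, with log2 fold changes of 0.32 ± 0.45 and 0.63 ± 0.45 (edgeR adjusted p = 0.609 and 0.302). The 12 h value passed with no filter on low counts (0.71, adjusted p = 0.00410) and with only the libraries compared in the fit (0.63, adjusted p = 0.0491). In 6 h control wounds it stood at 28.9 and 27.7 CPM and in 12 h control wounds at 30.3 and 49.1 CPM, between the 2 day 30 control libraries at 18.0 and 67.8 CPM (-0.72 ± 0.45 and -0.28 ± 0.45). Without day 30 control library 1 alone, the log2 fold changes in control skin were -1.36 at 6 h and -0.93 at 12 h and passed (adjusted p = 0.00413 and 0.0303). Without day 30 control library 2 they were 0.44 and 0.87 and did not pass (adjusted p = 0.278 and 0.0505), so the direction in control skin turned with the unwounded library kept. With both day 30 libraries numbered 1 left out, control skin gave -1.37 and -0.94 (adjusted p = 0.00324 and 0.0248), and post-imiquimod skin 0.13 and 0.44, neither of which passed.

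**Figure D4:**
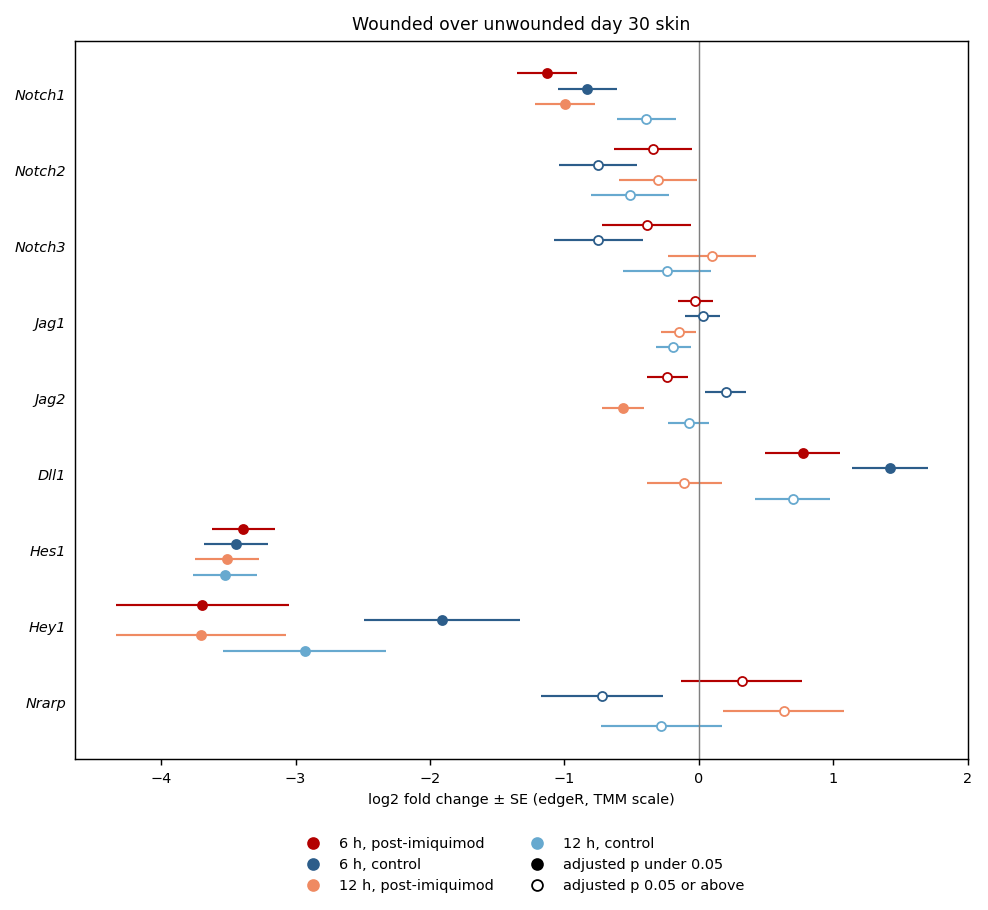
Log2 fold change of wounded over unwounded day 30 skin with its standard error (x axis, edgeR) for the 9 genes, with 6 h and 12 h in post-imiquimod skin in red tones and in control skin in blue tones, and filled points for an adjusted p under 0.05. The Hes1 points lie between -3.39 and -3.53 in all 4 comparisons, and the Jag1 points lie between -0.19 and 0.03.

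Of the ligands, Dll1 stood at 177 and 152 CPM in 6 h post-imiquimod wounds against 113 and 74.3 CPM in day 30 imiquimod libraries. In 6 h control wounds it stood at 184 and 196 CPM against 82.3 and 46.0 CPM in day 30 control libraries. Both wounded libraries were above both unwounded ones in each skin. The log2 fold change was 0.77 ± 0.28 in post-imiquimod skin (edgeR adjusted p = 0.0444) and 1.42 ± 0.28 in control skin (edgeR adjusted p = 0.00244). The post-imiquimod call was lost without day 30 imiquimod library 2 (0.41, adjusted p = 0.347) and without either wound library (adjusted p = 0.143 and 0.123), and it passed without both day 30 libraries numbered 1 (1.15, adjusted p = 0.00209), as did the control value (1.94, adjusted p = 0.000226). At 12 h Dll1 stood at 90.6 and 90.9 CPM in post-imiquimod wounds, between the 2 unwounded libraries (-0.11 ± 0.28, edgeR adjusted p = 0.791). In 12 h control wounds it stood at 105 and 133 CPM, above both unwounded libraries, but missed the threshold (0.70 ± 0.28, edgeR adjusted p = 0.0775). It passed there with the replicate block (0.76, adjusted p = 0.00347) and with scaling by library totals (0.90, adjusted p = 0.0151). Without day 30 control library 1, or without both day 30 libraries numbered 1, the value was 1.21. Of 11 alternatives 6 left Dll1 uncalled there, and the weakest value was 0.26.

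Jag2 fell in 12 h post-imiquimod wounds, which held 311 and 301 CPM against 437 and 436 CPM in day 30 imiquimod libraries. Its log2 fold change there was -0.57 ± 0.16 (edgeR adjusted p = 0.0122), a call lost without either 12 h wound library (adjusted p = 0.0602 and 0.0729) and with no filter on low counts (-0.49, adjusted p = 0.0601). It held without both day 30 libraries numbered 1 (-0.54, adjusted p = 0.0371). In the other wound groups it did not pass, at log2 fold changes of -0.23 ± 0.16 in 6 h post-imiquimod wounds, 0.20 ± 0.16 in 6 h control wounds and -0.08 ± 0.16 in 12 h control wounds. Jag1 varied least of the ligands across the wound comparisons, with log2 fold changes from -0.19 ± 0.13 to 0.03 ± 0.13 and levels of 126 to 165 CPM in the 8 wounded libraries against 137 to 150.5 CPM in the 4 unwounded ones.

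Notch1 stood at 188 and 145 CPM in 6 h post-imiquimod wounds and at 180.3 and 191 CPM in 12 h post-imiquimod wounds, against 299 and 417 CPM in day 30 imiquimod libraries. All wounded libraries were lower, with log2 fold changes of -1.13 ± 0.22 and -0.996 ± 0.222 (edgeR adjusted p = 0.00157 and 0.00369). These calls and that of 6 h control wounds below held without both day 30 libraries numbered 1 (-1.33, -1.20 and -1.11). In 6 h control wounds it stood at 240.1 and 154 CPM against 244 and 391 CPM in day 30 control libraries. The higher wound library was close to the lower unwounded one, and the log2 fold change was -0.83 ± 0.22 (edgeR adjusted p = 0.0116). That call was lost without day 30 control library 2 (-0.53, adjusted p = 0.107), without 6 h control wound library 2 (-0.59, adjusted p = 0.127) and with only the libraries compared in the fit (adjusted p = 0.0892). In 12 h control wounds it stood at 267 and 282 CPM, between the unwounded libraries (-0.39 ± 0.22, edgeR adjusted p = 0.198). It passed there with the replicate block (-0.36, adjusted p = 0.0226). Without day 30 control library 1, or without both day 30 libraries numbered 1, the value was -0.68. Of 11 alternatives 8 left Notch1 uncalled there, and the weakest value was -0.11.

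Notch2 and Notch3 turned on the same 2 unwounded libraries. Notch2 stood at 83.1 and 179 CPM and Notch3 at 77.9 and 199 CPM in day 30 control libraries 1 and 2. In 6 h control wounds Notch2 stood at 91.3 and 79.0 CPM and Notch3 at 79.4 and 99.1 CPM, near the lower of the 2 unwounded libraries. Their log2 fold changes at 6 h in control skin were -0.75 ± 0.29 and -0.75 ± 0.33 (edgeR adjusted p = 0.0623 and 0.0998). They passed with the replicate block (-0.67 and -0.635, adjusted p = 0.00333 and 0.0119). Without both day 30 libraries numbered 1 they were -1.19 and -1.26. The weakest values under other alternatives were -0.18 for Notch2 and -0.0085 for Notch3. DESeq2 called Notch2 there too (-0.75, adjusted p = 0.0332). At 12 h in control skin they were -0.51 ± 0.29 and -0.24 ± 0.33 (edgeR adjusted p = 0.202 and 0.621). Without both day 30 libraries numbered 1 these became -0.95 and -0.75, and Notch2 passed with the block (-0.43, adjusted p = 0.0270). Under other alternatives the 12 h values reached 0.05 for Notch2 and 0.49 for Notch3, with the sign changed. In post-imiquimod skin Notch2 gave -0.34 and -0.30 and Notch3 -0.39 and 0.10 at 6 h and 12 h, none of which passed, and at 6 h both did without those 2 libraries (-0.60 and -0.68, adjusted p = 0.0443 and 0.0223).

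The counts of called members sat beside a high background in every wound comparison. In 6 h post-imiquimod wounds 1 gene rose and 3 fell of 9, where 38.7% of all genes tested were called (20.1% higher, 18.6% lower). In 12 h post-imiquimod wounds none rose and 4 fell, where 37.7% were called (20.3% higher, 17.3% lower). In 6 h control wounds 1 rose and 3 fell, where 34.7% were called (18.0% higher, 16.7% lower). In 12 h control wounds none rose and 2 fell, where 30.8% were called (16.5% higher, 14.3% lower). Hair follicle markers summed to 1034 to 2476 CPM in wounds against 4808 to 9699.7 CPM in unwounded day 30 skin. Langerhans and dendritic cell markers summed to 203 to 486 CPM in wounds against 143 to 189 CPM. Fibroblast markers summed to 329 to 803 CPM against 126 to 353 CPM, and T cell markers to 1.27 to 2.36 CPM against 2.55 to 3.70 CPM. Suprabasal and macrophage sums in wounds are given above, and sums of the endothelial, pericyte and muscle, and melanocyte lists overlapped. At day 6 nearly all of the hair follicle sum was Krt15, which basal cells also express, and its share in wounds is not given here. Nor is the number of single markers of these lists that rose or fell. The part of any of these cells in the wound results was not tested.

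Whether earlier imiquimod changed these genes in wounds was asked in 2 ways. Post-imiquimod against control wounds called none of the 9 genes at 6 h, where 0.0347% of all genes tested were called, and none at 12 h, where 0.00% were. Hey1 at 6 h (9 and 2 reads in post-imiquimod wounds against 14 and 11 in control wounds, log2 fold change -1.59 ± 0.66) and Notch1 at 12 h (180.3 and 191 CPM against 267 and 282 CPM, -0.51 ± 0.22) had an unadjusted p under 0.05, and DESeq2 called neither. The wound response in post-imiquimod skin minus that in control skin called none of the 9 either, beside 0.00% of all genes tested at 6 h and 0.00% at 12 h. At an unadjusted p under 0.05 there were none at 6 h and Jag2 at 12 h (-0.49 ± 0.22), and DESeq2 called none. For Hes1 the difference in wound response was 0.06 ± 0.31 at 6 h and 0.01 ± 0.31 at 12 h, and it did not pass. For Dll1 it was -0.65 ± 0.39 and -0.81 ± 0.39, and for Nrarp 1.04 ± 0.64 and 0.91 ± 0.64 (edgeR adjusted p from 0.873 to 1), and neither passed. With no filter on low counts Nrarp at 6 h passed (1.05, adjusted p = 0.0409).

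Around the 9 genes, 63 other genes of the pathway were followed in 7 lists, of which 53 were tested. Too few reads were counted for the ligands Dll3, Dll4 and Dlk1, the fringe Mfng, and Hes2, Hes3, Hes5, Hes7, Hey2 and Helt. At day 6, 6 of the 53 rose and 14 fell, with a median log2 fold change of -0.13 against 0.10 for all genes tested. That is 37.7% of the pathway genes, near the 36.6% of all genes tested. In the list of enzymes that cut the receptor 3 rose and 3 fell of 10. Aph1c, a subunit of gamma-secretase, stood at 0.521 and 0.711 CPM in day 6 imiquimod libraries against 10.0 and 13.9 CPM in day 6 control libraries (-4.07 ± 0.36, edgeR adjusted p = 9.32e-06). Aph1b, a close relative, fell less (-0.82 ± 0.23), and reads that Aph1b and Aph1c share could have been assigned to either. Psen2, a catalytic subunit, fell as well (-1.27 ± 0.23). Of the 4 sugar-modifying enzymes tested, Lfng (-1.44 ± 0.43) and Pofut1 (-0.52 ± 0.17) fell and Rfng rose (0.66 ± 0.19). Mib2, a ubiquitin ligase that drives ligand endocytosis, fell (-1.29 ± 0.20), as did Fbxw7 (-0.75 ± 0.20), and Itch rose (0.43 ± 0.13), with 3 of 13 genes in that list called.

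Among nuclear partners of Notch at day 6, Tle1, a Groucho corepressor, stood at 82.9 and 43.8 CPM in imiquimod libraries against 22.3 and 17.4 CPM in control libraries (1.86 ± 0.23, edgeR adjusted p = 8.28e-05). Its relative Tle2 fell (-1.22 ± 0.31), with 1 higher and 4 lower of 16 in the list. Hes6, of the 2 tested genes among the other Hes and Hey family members, fell (-0.9998 ± 0.2981). Dlk2, a non-canonical ligand, fell as 1 of 2 tested in its list (-1.01 ± 0.34). Gata3, a keratinocyte transcription factor linked to Notch, stood at 107 and 124 CPM in imiquimod libraries against 479 and 637 CPM in control libraries (-2.05 ± 0.31, edgeR adjusted p = 0.000374), the 1 called gene of 6 in the list of other keratinocyte targets.

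**Figure D5:**
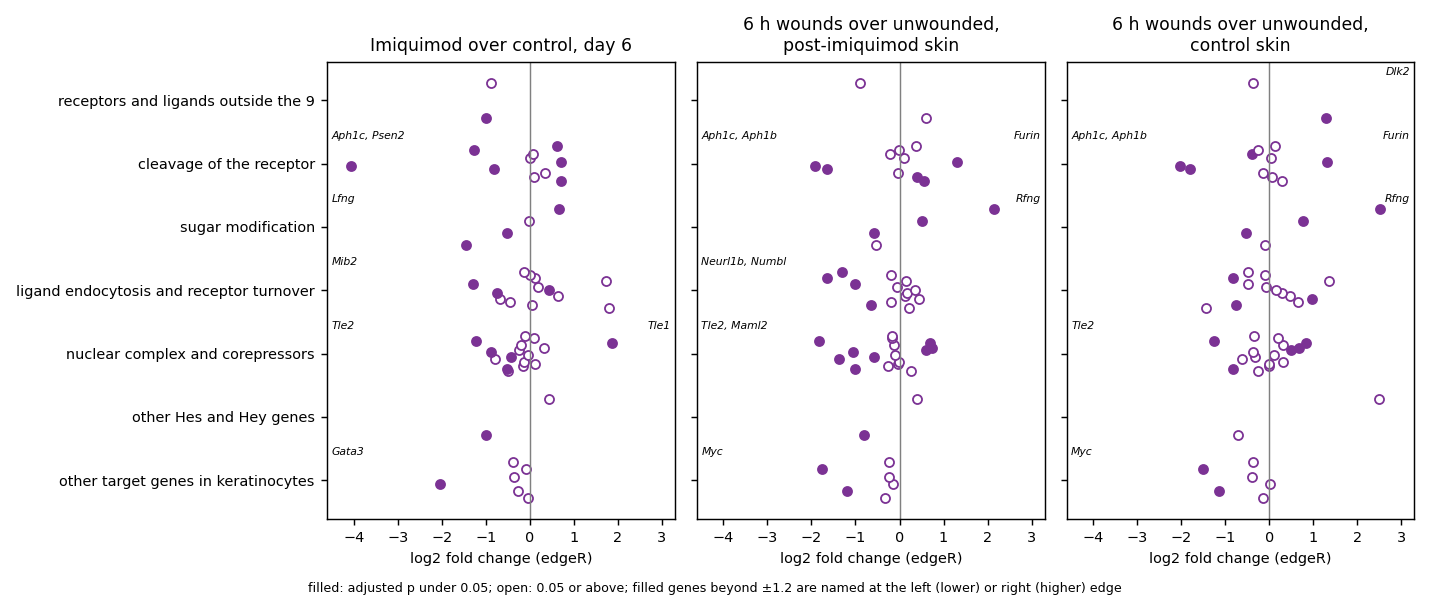
Log2 fold change (x axis, edgeR) of the 53 tested pathway genes outside the 9, by list, for imiquimod over control at day 6 and for 6 h wounds over unwounded day 30 skin after imiquimod and in control skin, with filled points for an adjusted p under 0.05 and named genes where a filled point lies beyond 1.2 in either direction. Aph1c at day 6 lies farthest left, at -4.07, and Rfng in 6 h control wounds farthest right, at 2.51.

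In wounds, 8 of the 53 rose and 15 fell at 6 h in post-imiquimod skin, 7 rose and 14 fell at 12 h in post-imiquimod skin, 8 rose and 10 fell at 6 h in control skin, and 7 rose and 11 fell at 12 h in control skin. The medians were -0.15, -0.22, -0.09 and -0.22, against -0.02, 0.02, 0.01 and 0.02 for all genes tested. The shares called were 43.4%, 39.6%, 34.0% and 34.0%, beside 38.7%, 37.7%, 34.7% and 30.8% of all genes tested. A fit without both day 30 libraries numbered 1 was added after the data were seen. It keeps 1 library in each day 30 group, so its counts are not given. Genes named below ranked among the 3 largest changes of their list in at least 1 wound comparison and are followed in the others too. Rfng, the radical fringe that adds sugars to Notch, stood at 154 and 187 CPM in 6 h post-imiquimod wounds against 39.5 and 36.8 CPM in day 30 imiquimod libraries (2.14 ± 0.20), and at 153 and 217 CPM in 6 h control wounds against 27.5 and 31.9 CPM in day 30 control libraries (2.51 ± 0.20). Furin, which cleaves the receptor on its way to the surface, stood at 233 and 322 CPM in 6 h post-imiquimod wounds against 109.9 and 111 CPM (1.31 ± 0.19), and at 231 and 299.8 CPM in 6 h control wounds against 99.0 and 95.5 CPM (1.32 ± 0.19). Both also passed at 12 h, Rfng at 1.47 ± 0.19 in post-imiquimod skin and 1.55 ± 0.19 in control skin, and Furin at 1.09 ± 0.19 and 1.14 ± 0.19. Aph1c and Aph1b fell in all 4 comparisons, Aph1c by log2 fold changes of -1.93 ± 0.32 at 6 h and -1.77 ± 0.32 at 12 h in post-imiquimod skin and -2.02 ± 0.32 and -1.71 ± 0.31 in control skin. Of the list on ligand endocytosis and receptor turnover, Neurl1b fell in all 4, with -1.65 ± 0.27 at 6 h and -1.62 ± 0.27 at 12 h after imiquimod and -0.82 ± 0.26 and -0.80 ± 0.26 in control skin. The control calls of Neurl1b were lost without both day 30 libraries numbered 1 (adjusted p = 0.0886 and 0.103).

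Nuclear partners in the wounds were divided. Tle2 fell in each of the 4 comparisons, from -1.82 ± 0.32 in 6 h post-imiquimod wounds to -0.87 ± 0.31 in 12 h control wounds. Crebbp, a histone acetyltransferase of the Notch complex, also fell in each, from -1.26 ± 0.14 in 12 h post-imiquimod wounds to -0.81 ± 0.14 in 6 h control wounds. Tle1 rose in each, from 0.70 ± 0.23 in 6 h post-imiquimod wounds to 0.99 ± 0.23 in 12 h control wounds. The calls of Tle2 in 12 h control wounds (adjusted p = 0.0666) and of Tle1 in 6 h post-imiquimod wounds (adjusted p = 0.0623) were lost without both day 30 libraries numbered 1. Of the other keratinocyte targets, Myc stood at 235 and 298 CPM in 6 h post-imiquimod wounds against 1026 and 748 CPM in day 30 imiquimod libraries, and at 259 and 365 CPM in 6 h control wounds against 897 and 728 CPM in day 30 control libraries. It fell in all 4 comparisons, by log2 fold changes from -1.51 ± 0.25 to -2.07 ± 0.25. Cdkn1a, a cell cycle inhibitor, fell in all 4 from -1.15 ± 0.29 to -1.66 ± 0.29. Myc and Cdkn1a were also lower in unwounded day 6 control skin than in day 30 control skin, with values under Other observations. Myc in day 6 control skin stood below the 6 h control wounds. Wounds were not compared with day 6 skin. Day 30 differences from control after imiquimod, imiquimod differences in wounds and the differences in wound response held no called gene among the 53, with 2, 3, 1, 3 and 3 genes at an unadjusted p under 0.05 for day 30, 6 h wounds, 12 h wounds, and the 6 h and 12 h responses, and none called by DESeq2.

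Ordered by group mean, Notch1 ran from 167 CPM in 6 h post-imiquimod wounds to 372 CPM in day 6 control skin. Of the 7 steps between neighbouring groups, the libraries lay apart at 1, that between day 6 imiquimod skin (209 CPM) and 12 h control wounds (274 CPM). The groups are ordered by these same means. How often such neighbours lie apart over all genes tested was not counted, so the steps are description only. For Notch2 and Notch3 the libraries of all neighbours overlapped. The same held for Jag1, from 138 CPM in 12 h post-imiquimod wounds to 171 CPM in day 6 imiquimod skin. Jag2 ran from 262 CPM in day 6 imiquimod skin through 306 CPM in 12 h post-imiquimod wounds to 344 CPM in day 30 control skin, each apart from the next, and ended at 649 CPM in day 6 control skin, apart from 6 h control wounds at 437 CPM. Dll1 ran from 32.9 CPM in day 6 imiquimod skin to 190.1 CPM in 6 h control wounds, and only the step from 12 h post-imiquimod wounds (90.8 CPM) to day 30 imiquimod skin (93.8 CPM) and the next to 12 h control wounds (119 CPM) showed overlapping libraries. Hes1 had 2 steps, from day 6 control skin at 32.1 CPM to 12 h post-imiquimod wounds at 49.3 CPM, and from day 6 imiquimod skin at 53.4 CPM to day 30 control skin at 527 CPM. Hey1 was apart between 12 h post-imiquimod wounds (0.104 CPM, 5 and 6 reads) and 12 h control wounds (0.159 CPM, 6 and 11 reads). It was also apart between day 6 control skin (0.413 CPM) and day 30 control skin (1.08 CPM). Nrarp started at 8.82 CPM in day 6 control skin, apart from day 6 imiquimod skin at 23.2 CPM, and ended at 46.9 CPM in 12 h post-imiquimod wounds.

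The genes most like each member over the 8 group means of log2 CPM were taken from 10003 expressed genes, as a description of 8 points that share libraries and depth. For Hes1 they were Rnf19b (Pearson r 0.992) and Igbp1 (0.986), and for Hey1 Bcas3 (0.987) and Rnf19a (0.985). For Nrarp they were Ube2l3 (0.993) and Arpc4 (0.993). For Dll1 they were Wnt16 (0.979), a secreted Wnt ligand, and Slc26a11 (0.970), for Jag2 Syde2 (0.986) and Zfp318 (0.981), and for Jag1 Usp45 (0.960) and Eml4 (0.915). For Notch1 they were Dync2h1 (0.983) and Shroom4 (0.981), for Notch2 Med20 (0.987) and Acot8 (0.975), and for Notch3 Snx12 (0.976) and Tceal8 (0.972). No member was among the others' most like genes because members were left out of this search.

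Some of these genes share their place in the genome with others, and the counts carry no strand. Notch1 (chr2:26457902-26503822) overlaps 0610009E02Rik, which had at most 20 reads in a library, and Mir6996. Jag2 (chr12:112907803-112929812) overlaps Mir6941, with at most 24 reads. Hey1 (chr3:8663359-8667038), with 2 to 40 reads in a library, overlaps LOC115489673, a protein-coding gene, and reads of the shared stretch could belong to either. Notch2 overlaps the lncRNA Gm40103 and Notch3 the lncRNAs Gm38585 and Gm41568. Levels of these 4 genes were not analysed here. Notch1 itself had 3900 to 19866 reads in a library and Jag2 8462 to 31947. Hes1 lies at chr16:30065357-30067796, Dll1 at chr17:15367354-15376932 and Nrarp at chr2:25180758-25183339, in RefSeq coordinates of GRCm38.p6 for the whole gene.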

How the data were processed

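The files used here hold gene counts of 16 RNA-seq libraries, 1 whole number per gene, deposited by the authors without normalization. Per the submitters' processing notes reads were aligned with STAR to mm10; its version, the counting step and the annotation were "not given in the sources used here". Illumina TruSeq RNA libraries, which do not mark the strand, were prepared from RNA isolated with Trizol and a Zymo extraction kit, per the labels' protocols. Of 47729 gene IDs, 47224 matched a GRCm38 gene symbol by Ensembl ID without its version. IDs without a symbol held at most 0.0887% of the counts of a library.

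All 16 libraries entered 1 edgeR quasi-likelihood fit of 8 group means (edgeR 4.0.16, R 4.3.3, TMM, filterByExpr, robust, two-sided, no replicate block), which left 8 residual degrees of freedom. P-values were adjusted by Benjamini-Hochberg over 17299 genes and the threshold was 0.05. CPM were computed from library totals alone. Libraries of a group differed beyond counting error, with a mean chi-square per gene of 22.7 to 202. An exact permutation test of 2 against 2 libraries cannot give a p below 0.333, so none was used. The script was tested on simulated counts.

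Replicate numbers come from the labels. Deviations from the group means correlated between same-numbered libraries of a time at 0.220 (day 6), 0.452 (day 30), 0.540 (6 h wounds) and 0.323 (12 h wounds), all over 0.1. What same-numbered libraries share is not in the labels. The main fit does not use the numbers, so its p-values ignore any such pairing, and the block is given as an alternative. Alternatives were RLE scaling, no filter on low counts, DESeq2 1.42.0, only the libraries compared, the block within each time, each library left out, both day 30 libraries numbered 1 left out and, added after the data were seen, scaling by library totals and, for the pathway genes, leaving out both day 30 libraries numbered 1. The 9 genes always, the 3 largest called changes per list and comparison, and the 2 most like genes per member were named; some genes this rule would name are not reported here. The members and lists were chosen with earlier results of these data known.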

Additional observations from a re-analysis of the deposited data

Results flagged for a closer look

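Of the 9 genes, 4 were singled out because their imiquimod effect differed between day 6 and day 30 by a direct test of that difference (edgeR, Benjamini-Hochberg over all genes tested, where 22.5% were called). Dll1 differed by -2.38 on the log2 scale, being lower after imiquimod at day 6 (29.6 and 36.2 CPM against 149 and 141 CPM in control) and not called at day 30 (113 and 74.3 CPM against 82.3 and 46.0 CPM). Jag2 differed by -1.36, with 273 and 251 CPM against 645 and 652 CPM at day 6 and 437 and 436 CPM against 359 and 329 CPM at day 30. Hes1 differed by 0.98 and Nrarp by 2.23, and both calls were lost without several single libraries, which the report names.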

How the results depend on the processing

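Of 1268 values of single members under the alternatives, 1153 kept their side of the threshold, 60 passed where the main value had not, 55 no longer passed, and none that was called reversed; 76 changed sign, all uncalled. RLE scaling changed no member's call. With scaling by library totals, 2 members passed for the day 6 minus day 30 difference. Without the filter on low counts, 151, 441 and 182 genes were called for imiquimod at day 30 and in 6 h and 12 h wounds, 255 and 69 for the 6 h and 12 h differences in wound response, 7 members in 6 h control wounds and 1 for the 6 h difference. With the replicate block these became 5, 28 and 20 genes and, for the 6 h difference, 3; members called were 5 in 12 h control wounds, 7 for the day 6 minus day 30 difference (5927 genes) and 8 for day 30 over day 6 control (6138 genes). The block changed no other member's call than those in the report. DESeq2 called 20, 132 and 27 genes for imiquimod at day 30, 6 h and 12 h, 32 and 1 for the differences in response, and 7 members for day 30 over day 6 control. With only the libraries compared, 0, 0 and 9 genes were called for imiquimod at day 30, 6 h and 12 h, 3272 genes and 2 members in 6 h control wounds, 1772 genes and 2 members for the day 6 minus day 30 difference, and 1066 genes and 1 member for day 30 over day 6 control. Without both day 30 libraries numbered 1, each day 30 group kept 1 library, so counts of that fit are not given. Member counts printed here without a gene count carry no comparison with all genes tested.

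Leaving out single libraries gave 3 to 4 members and 4202 to 5589 genes for imiquimod at day 6 (6 and 6333 with all), 2 to 4 members and 2229 to 3997 genes for the day 6 minus day 30 difference, 2 to 6 members and 1621 to 2982 genes for day 30 over day 6 control, 2 to 6 members and 3252 to 4958 genes in 6 h control wounds, 2 to 7 members and 2846 to 4302 genes in 12 h control wounds, 4044 to 5486 genes in 6 h and 4202 to 5215 in 12 h post-imiquimod wounds, 0 to 2 genes for imiquimod at day 30 and 0 to 5 in 6 h wounds. A group left with 1 library is assumed to vary like the others, and fewer libraries were in those fits; for the other changes the cause was not tested. Depth limits Hey1, which had 2 to 40 reads in a library.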

Other observations

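Other pathway genes also differed between day 30 and day 6 in control skin, the comparison added after the Hes1 levels were seen. Of the 53 tested, 5 rose and 10 fell, which is 28.3%, beside 21.3% of all genes tested. Leaving out both day 30 libraries numbered 1 keeps 1 library in the day 30 control group, so counts of that fit are not given. Myc stood at 897 and 728 CPM in day 30 control libraries against 244 and 217 CPM in day 6 control libraries (log2 fold change 2.16 ± 0.26, edgeR adjusted p = 0.000152). Cdkn1a stood at 689 and 735 CPM against 352 and 341 CPM (1.37 ± 0.29, edgeR adjusted p = 0.00687). Rbpj, the DNA-binding partner of Notch, stood at 16.9 and 14.8 CPM at day 30 against 32.8 and 33.5 CPM at day 6 (-0.73 ± 0.16, edgeR adjusted p = 0.00723). Gata3 fell as well (-1.27 ± 0.31), a call lost without those 2 libraries (-0.80, adjusted p = 0.0582), as did the gamma-secretase subunits Aph1a (-1.45 ± 0.15) and Psenen (-1.36 ± 0.17).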
